A study of Mus musculus with 6 samples.

Results

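The genes described here encode the nuclear-encoded subunits of mitochondrial oxidative phosphorylation. They were chosen by symbol, as Nduf (complex I), Sdh (complex II), Uqcr and Cyc1 (complex III), Cox4 to Cox8 (complex IV) and Atp5 (complex V). The rule found 85 of the 34967 transcript probes on the array, for 78 of the 18562 genes that the probes named. Complex I had 35 probes for 33 genes, complex II had 4 for 4, complex III had 12 for 9, complex IV had 16 for 16 and complex V had 18 for 16. Expression was measured with CodeLink Mouse Whole Genome bioarrays of 1 colour, on 6 arrays, 3 of wild-type and 3 of Splotch null mouse embryos at embryonic day 9.5, to ask how gene expression differs in this region, which holds the posterior neuropore, when both copies of the gene are mutant. Splotch is a mutation of Pax3, a transcription factor of the dorsal neural tube, neural crest and somite, and null embryos develop spinal neural tube defects. All 6 samples carried the strain label LMBc, which the labels did not explain, and the Splotch allele was not named. The tissue was the part of the embryo below the forelimb, so it can hold other tissues beside the neural tube, and no label said if the RNA of an array came from 1 embryo or was pooled. P-values therefore measure the spread between these 6 samples, which may be partly technical, and the number of arrays limits their precision.

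Oxidative phosphorylation passes electrons from NADH (complex I) and succinate (complex II) through ubiquinone to complex III, then by cytochrome c to oxygen at complex IV, and complexes I, III and IV pump protons that drive ATP synthesis at complex V. Complexes I, III, IV and V are each built from subunits of the nuclear genome together with a few made inside the mitochondrion, and complex II from nuclear subunits alone. Embryos of this stage have begun to form a circulation, and their tissues make ATP from both glycolysis and respiration. No mitochondrially encoded subunit was among the named probes (0 of 13 genes listed), so all values below are of nuclear transcripts.

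Splotch null and wild-type embryos did not differ detectably in these genes. Of the 78 genes, 75 had a probe above background on 3 or more of the 6 arrays and could be tested. None of the 75 passed an adjusted p of 0.05 with limma and Benjamini-Hochberg adjustment, and 0.0% of the 14331 genes tested did. None of the 75 had an unadjusted p under 0.05 either, against 1.43% of all genes tested. The genotypes overlapped in all 74 genes with a usable spot on all 6 arrays, while they did not overlap in 5.1% of all such genes. The median difference, Splotch null minus wild type, was 0.05 on the log2 scale, beside 0.02 over all genes tested, and 49 genes were higher and 26 lower in the null, where 55.0% of all genes tested were higher. The sign of this median rested on single arrays: it was -0.23 without wild type 1, -0.08 without Splotch null 1, -0.11 without Splotch null 2 and 0.39 without Splotch null 3. Single-gene differences ran from -0.27 for Sdhd to 0.59 for Atp5l. The spread within a genotype was wide. The median standard error of the difference was 0.37 for these genes and 0.16 for all genes tested, so differences of the size of the intervals given below were not detectable. In tissue pieces, fewer cells of a type and less RNA per cell cannot be told apart.

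**Figure D1:**
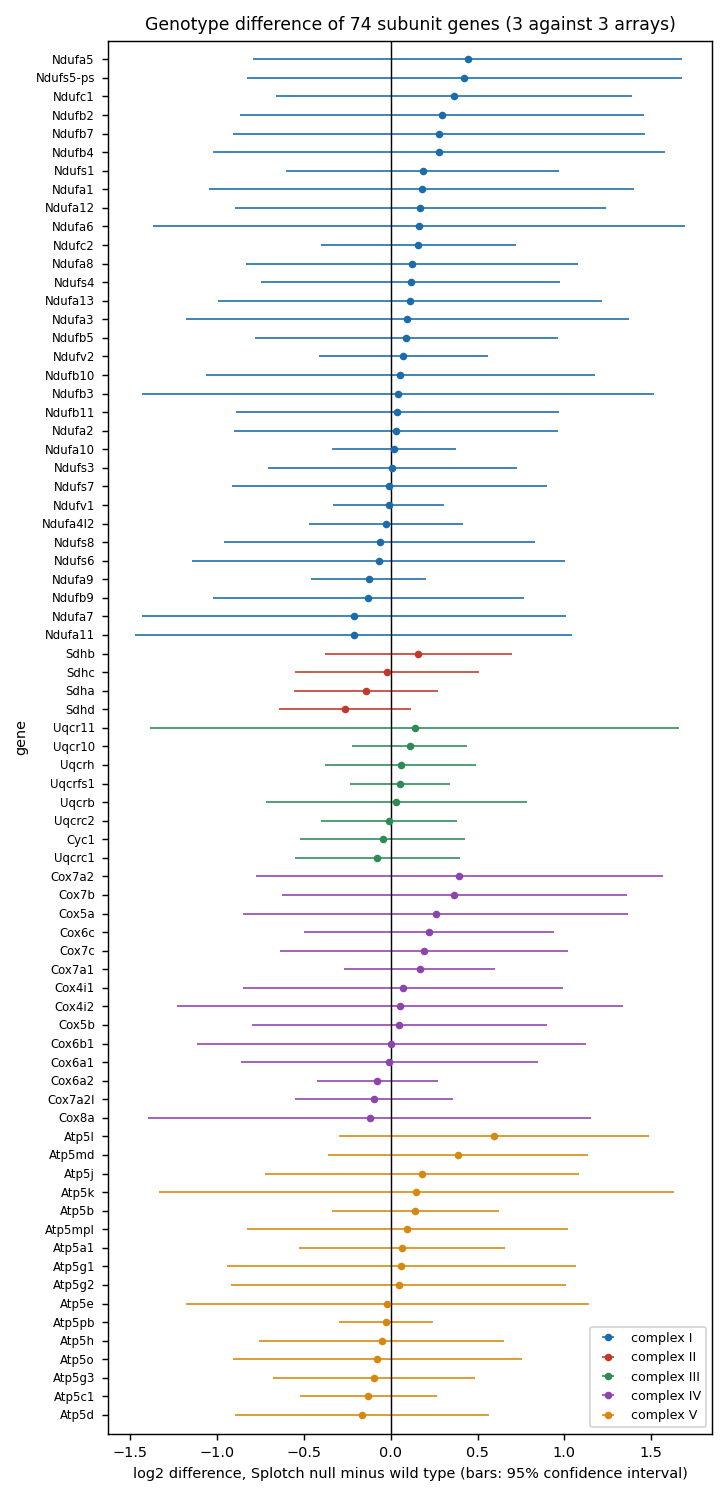
Log2 difference, Splotch null minus wild type, of 74 of the 75 tested subunit genes (points) with its 95% confidence interval from limma (bars), coloured by complex, 3 arrays per genotype. All 74 intervals include 0, and the points lie between -0.27 (Sdhd) and 0.59 (Atp5l).

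The wide spread had a pattern that did not follow genotype. Wild type 1 and Splotch null 3 had the highest median raw intensity over all transcript probes, 116.3 and 121.1, where the other 4 arrays lay between 84.3 and 99.7. On these same 2 arrays the subunit genes were dim. Their median raw intensity was 4183 on wild type 1 and 4965 on Splotch null 3, against 7548 on wild type 2, 7482 on wild type 3, 8414 on Splotch null 1 and 8195 on Splotch null 2. After quantile normalization, which gives every array the same distribution of values, the median subunit gene was lower on these 2 arrays than on the other 4 by a log2 difference of -0.99, which is 1.99-fold. The median over all genes tested was -0.01. Of the 75 genes, 68 were lower on the 2 arrays, beside 7324 of the 14331 genes tested. At least 1.5-fold lower were 50 of the 75, against 8.65% of all genes tested. Ndufs1 and Atp5a1 were at least 1.5-fold higher there, where 4.21% of all genes tested were. In 59 of the 75 both arrays lay below all other 4, against 25.6% of all genes tested. The lowest of the 6 values fell on wild type 1 in 34 genes and on Splotch null 3 in 34. The highest fell on Splotch null 1 in 26, Splotch null 2 in 23, wild type 2 in 11, wild type 3 in 10, wild type 1 in 4 and Splotch null 3 in 1. No share over all genes is given beside these counts. The arrays were split by their median intensity and not by these genes, the split was chosen with these results known, and no test was made of it.

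**Figure D2:**
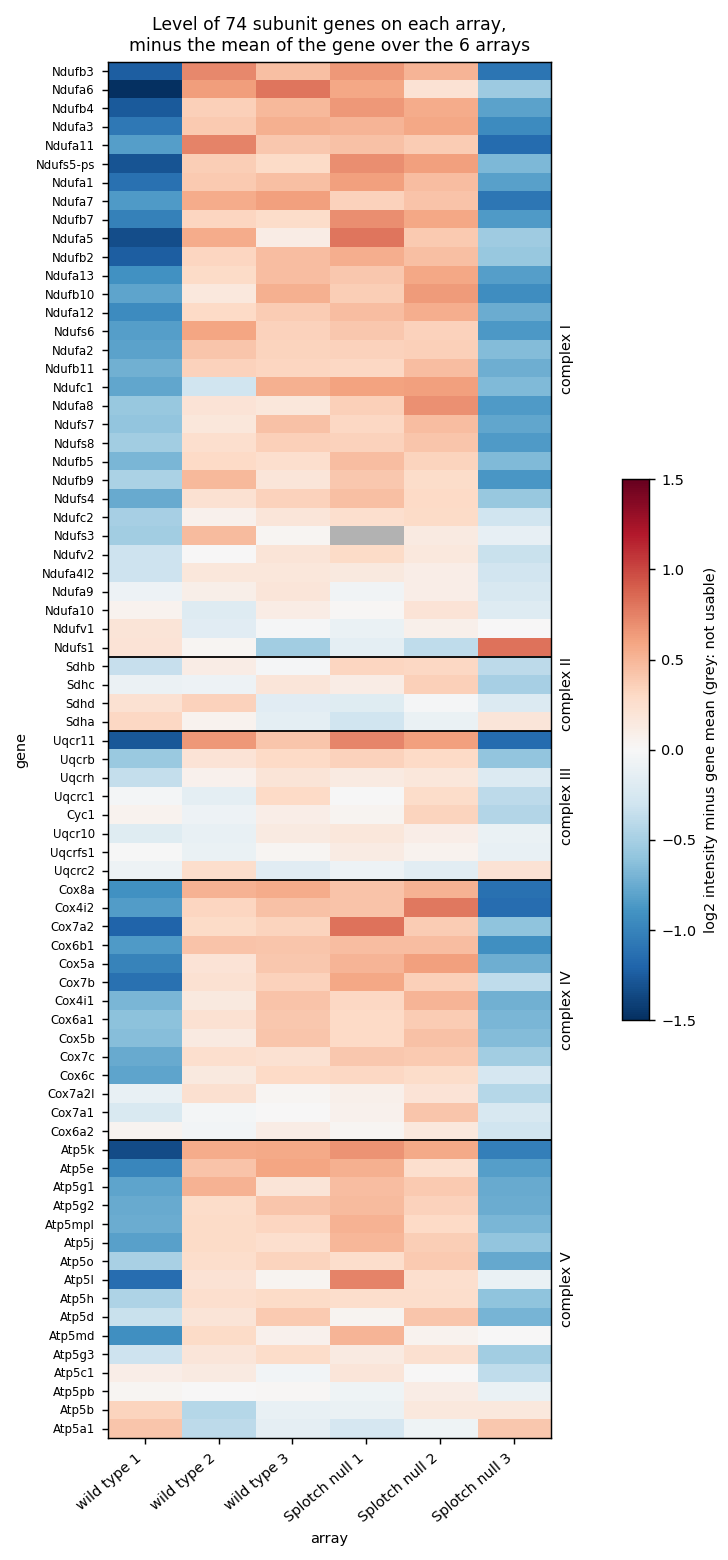
Normalized log2 intensity of 74 of the 75 tested subunit genes (rows, grouped by complex and ordered within it) on each array (columns), minus the mean of the gene over the 6 arrays. Blue is below the mean, red above, and the colour scale ends at 1.5 either way. The columns of wild type 1 and Splotch null 3 are blue for most genes of complexes I, IV and V and paler for most of complexes II and III. In complex III, Uqcr11 and Uqcrb are blue on both.

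Because the subunits were dim on 1 array of each genotype, the genotype difference was also read within each kind of array. Between Splotch null 3 and wild type 1 the median difference of the 75 genes was -0.01, beside 0.01 for all genes tested. Among the other 4 arrays the median was 0.08, beside 0.02 for all genes tested on those arrays. On those 4 arrays the genotypes did not overlap in 25 of 74 genes, beside 33.9% of all genes. Without the 2 arrays of highest median, 2 genes, Ndufb7 and Ndufs5-ps, had an unadjusted limma p under 0.05, against 3.37% of all genes tested, and 0 genes passed the adjusted threshold.

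Promoters are shown for 6 of the genes whose values are given in full below. The 6 were picked after their values were seen, and other genes with values given in full are not shown. Atp5k, Uqcr11 and Ndufa6 were among the 6 genes with the largest range over the arrays, as were Ndufa5, Cox7a2 and Ndufs5-ps, which are not shown, Atp5l and Sdhd had the largest genotype differences in either direction, and Sdha was brighter on the 2 arrays where most subunits were dim. Each line runs from 250 bases before to 50 bases after the annotated start (RefSeq, GRCm38.p6), 5′ to 3′ along the gene. Capitals mark matches on either strand to the letters GCGCANGCG, bound by NRF1, a factor known to act on many respiratory genes, or CCGGAAG, the core read by ETS factors such as GABP.
Atp5k, chr5:108434350-108434649, minus strand: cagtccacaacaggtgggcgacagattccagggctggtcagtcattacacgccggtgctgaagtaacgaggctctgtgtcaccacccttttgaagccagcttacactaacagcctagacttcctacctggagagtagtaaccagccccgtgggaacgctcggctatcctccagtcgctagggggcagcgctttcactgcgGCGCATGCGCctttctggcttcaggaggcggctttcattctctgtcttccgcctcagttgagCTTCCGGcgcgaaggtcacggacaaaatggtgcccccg
Uqcr11, chr10:80406772-80407071, minus strand: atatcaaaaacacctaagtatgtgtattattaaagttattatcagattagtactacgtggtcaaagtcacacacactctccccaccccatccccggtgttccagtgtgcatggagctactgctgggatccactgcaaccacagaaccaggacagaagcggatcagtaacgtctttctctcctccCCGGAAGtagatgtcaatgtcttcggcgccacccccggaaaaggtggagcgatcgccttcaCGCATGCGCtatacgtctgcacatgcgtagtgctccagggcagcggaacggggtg
Ndufa6, chr15:82354242-82354541, minus strand: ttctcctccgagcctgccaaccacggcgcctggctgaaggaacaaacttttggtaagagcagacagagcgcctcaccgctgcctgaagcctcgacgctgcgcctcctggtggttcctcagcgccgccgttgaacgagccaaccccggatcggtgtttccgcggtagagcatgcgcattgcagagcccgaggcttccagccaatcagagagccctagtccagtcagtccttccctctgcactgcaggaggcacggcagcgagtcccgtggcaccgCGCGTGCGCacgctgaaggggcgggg
Atp5l, chr9:44920693-44920992, minus strand: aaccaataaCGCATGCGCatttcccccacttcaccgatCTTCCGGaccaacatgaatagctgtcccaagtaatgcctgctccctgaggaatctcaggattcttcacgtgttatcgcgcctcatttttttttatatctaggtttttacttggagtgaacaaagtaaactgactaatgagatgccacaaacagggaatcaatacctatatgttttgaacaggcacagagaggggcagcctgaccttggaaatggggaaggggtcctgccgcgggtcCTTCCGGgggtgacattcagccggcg
Sdhd, chr9:50603800-50604099, minus strand: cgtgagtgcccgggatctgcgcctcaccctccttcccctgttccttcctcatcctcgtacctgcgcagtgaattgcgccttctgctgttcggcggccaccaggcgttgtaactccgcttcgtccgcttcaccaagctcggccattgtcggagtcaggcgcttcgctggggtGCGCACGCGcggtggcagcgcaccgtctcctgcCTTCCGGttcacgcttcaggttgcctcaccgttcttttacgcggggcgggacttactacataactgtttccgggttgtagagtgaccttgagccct
Sdha, chr13:74350191-74350490, minus strand: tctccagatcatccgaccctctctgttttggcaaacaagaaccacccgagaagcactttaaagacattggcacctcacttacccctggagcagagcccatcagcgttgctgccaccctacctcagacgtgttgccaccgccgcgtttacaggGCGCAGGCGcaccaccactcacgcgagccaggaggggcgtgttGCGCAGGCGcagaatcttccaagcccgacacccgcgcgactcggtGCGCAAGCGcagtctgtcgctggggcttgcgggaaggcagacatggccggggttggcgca

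All 6 windows hold a match to the NRF1 letters, which reflects the genes picked, since most windows of the subunit genes hold none. Promoter entries were found for 61 of the 78 genes, in 66 windows. The NRF1 letters were in 20 windows (30.3%), against 11.1% of the 14302 windows of genes tested and 6.25% of all 32851 windows. The ETS letters were in 16 (24.2%), against 14.5% and 8.86%. The letters AAGATGGCG, bound by YY1, were in 6 (9.09%), against 2.45% and 1.40%. No match to one motif overlapped a match to another in these windows, and 32 of the 66 windows held none of the 3. A match is a run of letters, not a measured site. The array pattern was also read by motif. The 19 tested subunit genes with the NRF1 letters had a median log2 difference between the 2 arrays of highest median and the other 4 of -1.06, and the 40 with a promoter entry but no match had -1.02. The medians were -1.003 and -1.03 for the ETS letters, and -1.04 and -1.01 for the YY1 letters.

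Complex I, which oxidises NADH, was read by the roles of its subunits, in a grouping made after the values were seen and not tested. The 7 core subunits, which carry the flavin and the iron-sulfur clusters, had a median log2 difference between the 2 arrays and the other 4 of -0.49, with a range of -1.03 to 0.76. The 26 other subunits, most of which surround this core, had a median of -1.27 with a range of -1.76 to -0.11, and 23 of them were at least 1.5-fold lower. The ranges of the groups overlapped.

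Among the core subunits, Ndufs1, the largest iron-sulfur protein of the complex, had raw intensities of 2781, 2173 and 1386 on wild type 1 to 3 and 1815, 1599 and 4326 on Splotch null 1 to 3. It was brightest on the same 2 arrays where most other subunits were dim, with a log2 difference of 0.76. Ndufv1, which binds NADH and the flavin, read 4993, 3636 and 3949.5 on wild type 1 to 3 and 3686, 4397 and 4588 on Splotch null 1 to 3. Its 6 values lay close together, with a log2 difference of 0.15 between the 2 arrays and the other 4 and a genotype difference of -0.01 (SE 0.14). Several core subunits were lower on the 2 arrays, by a log2 difference of -0.49 for Ndufv2, -0.54 for Ndufs3, -1.02 for Ndufs8 and -1.03 for Ndufs7. Both probes of Ndufs3 were lower there, and its brighter probe had no usable spot on Splotch null 1.

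Ndufa6, a small subunit of the matrix arm, had one of the largest ranges over the arrays. Its raw intensities were 765, 3348 and 3690.3 on wild type 1 to 3 and 3078, 2496 and 1753 on Splotch null 1 to 3. Wild type 1 was lowest, and Splotch null 3 lay between it and the other 4, with -1.67 between the array groups. The genotypes overlapped, with log2 levels of 11.06 ± 1.38 in wild type and 11.23 ± 0.57 in Splotch null (SD, n = 3 each). The genotype difference was 0.16 (SE 0.65, 95% interval -1.37 to 1.70, unadjusted limma p = 0.81, exact two-sided permutation p = 1). It was 1.13 between Splotch null 3 and wild type 1 but -0.32 among the other 4 arrays, so its sign rested on which arrays were compared.

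Ndufa5, another matrix-arm subunit, read 233, 826 and 531 on wild type 1 to 3 and 922, 707 and 461 on Splotch null 1 to 3, with wild type 1 lowest. Its genotype difference was 0.45 (SE 0.53, 95% interval -0.79 to 1.68, unadjusted limma p = 0.425, exact two-sided permutation p = 0.6). Ndufc1, a subunit of the membrane arm, read 3096, 3906 and 6986 on wild type 1 to 3 and 7319.5, 7667 and 3479 on Splotch null 1 to 3. Wild type 1, wild type 2 and Splotch null 3 were low, and wild type 3 lay near the brighter 2 null arrays. Without wild type 1 its genotype difference was 0.07. Between genotypes it differed by 0.36 (SE 0.44, 95% interval -0.66 to 1.39, unadjusted limma p = 0.429, exact two-sided permutation p = 0.5). Ndufa9, which sits near the junction of the arms, read 5322, 5727 and 6026 on wild type 1 to 3 and 5022, 5862 and 5094 on Splotch null 1 to 3. It was among the steadier members and had the lowest unadjusted p in the complex, with a difference of -0.13 (SE 0.14, 95% interval -0.46 to 0.20, unadjusted limma p = 0.396, exact two-sided permutation p = 0.5).

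Several subunits of the membrane arm were as low on the 2 arrays as those of the matrix arm. Ndufb3 had a log2 difference between the array groups of -1.75, Ndufb4 of -1.54, Ndufa11 of -1.48 and Ndufa3 of -1.51. Ndufb3 read 236, 877 and 656 on wild type 1 to 3 and 771, 730.1 and 276 on Splotch null 1 to 3, so that wild type 1 and Splotch null 3 were far below the other 4 and the genotype difference was 0.04 (SE 0.63). Ndufs4 and Ndufs6, accessory subunits of the matrix arm whose loss causes complex I deficiency in humans, had -0.99 and -1.26. Ndufa1, Ndufa2, Ndufa7, Ndufa8, Ndufa12, Ndufa13, Ndufb2, Ndufb5, Ndufb7, Ndufb9, Ndufb10, Ndufb11 and Ndufc2 lay between -1.45 (Ndufa1) and -0.60 (Ndufc2). Ndufa10 had the smallest difference among the 26 (-0.11), followed by Ndufa9 (-0.24).

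Of the probes named as complex I, 2 need care. Ndufs5-ps is annotated as a transcribed pseudogene, and its signal may come from Ndufs5, which was not tested. The Ndufs5-ps probe read 714, 1976 and 1795 on wild type 1 to 3 and 2408, 2361 and 1139.5 on Splotch null 1 to 3, with wild type 1 and Splotch null 3 lowest. Null minus wild type gave 0.42 (SE 0.53, 95% interval -0.83 to 1.68, unadjusted limma p = 0.451, exact two-sided permutation p = 0.5). Ndufa4l2 is an isoform of Ndufa4, which is now placed in complex IV. It read 1156, 1367 and 1294 on wild type 1 to 3 and 1265, 1294 and 1216 on Splotch null 1 to 3. After normalization it was lower on wild type 1 and Splotch null 3, at -0.44 between array groups. Its genotype difference was -0.03 (SE 0.19).

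Complex II, the succinate dehydrogenase shared with the citric acid cycle, had the median nearest to that of all genes. For its 4 genes the difference between the array groups had a median of -0.21, and none was 1.5-fold different. Sdha, the flavoprotein that oxidises succinate, read 12064, 10691 and 9215 on wild type 1 to 3 and 8151, 9705 and 11706 on Splotch null 1 to 3. Wild type 1 and Splotch null 3 were its brightest arrays, and its difference between array groups was 0.36. The difference between genotypes was -0.14 (SE 0.18, 95% interval -0.56 to 0.27, unadjusted limma p = 0.448, exact two-sided permutation p = 0.5). Sdhb, the iron-sulfur subunit, read 3086, 3829 and 3388 on wild type 1 to 3 and 4315, 4453 and 3079 on Splotch null 1 to 3. It was lower on the 2 arrays, at -0.55 between array groups, and its genotype difference was 0.16 (SE 0.23, 95% interval -0.38 to 0.70, unadjusted limma p = 0.512, exact two-sided permutation p = 0.6).

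The membrane anchors Sdhc and Sdhd hold the heme and the ubiquinone site. Sdhd read 6996, 7548 and 5114 on wild type 1 to 3 and 5047, 5869 and 5553 on Splotch null 1 to 3. Wild type 1 and 2 were the brightest, and wild type 3 lay among the null arrays, so the genotypes overlapped. Its log2 levels were 12.69 ± 0.27 in wild type and 12.42 ± 0.10 in Splotch null (SD, n = 3 each). Its genotype difference, the lowest of the 75, was -0.27 (SE 0.16, 95% interval -0.65 to 0.12, unadjusted limma p = 0.144, exact two-sided permutation p = 0.2), where 0.1 is the smallest permutation p that 3 against 3 arrays allow. Its adjusted limma p was 0.9998, and it was past an unadjusted 0.05 when wild type 3 was left out. Sdhc read 4183, 3887 and 4621 on wild type 1 to 3 and 4295, 5396 and 3326 on Splotch null 1 to 3, with the lowest value on Splotch null 3. Its genotype difference was -0.02 (SE 0.23, 95% interval -0.55 to 0.51, unadjusted limma p = 0.923, exact two-sided permutation p = 1).

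Complex III is the cytochrome bc1 complex. The 4 catalytic and core proteins had a median difference between array groups of -0.19, with a range of -0.32 to 0.10. The 4 tested small subunits had a median of -0.64, with an overlapping range of -1.82 to -0.21, the latter for Uqcr10. Uqcrfs1, the Rieske iron-sulfur protein, read 10378, 10087 and 11008 on wild type 1 to 3 and 11654, 11564 and 10101 on Splotch null 1 to 3. All 6 values lay close together, and its genotype difference was 0.05 (SE 0.12, 95% interval -0.23 to 0.34, unadjusted limma p = 0.67, exact two-sided permutation p = 0.5). Cyc1, cytochrome c1, read 8322, 7759.6 and 8701 on wild type 1 to 3 and 8198, 10701 and 6370.4 on Splotch null 1 to 3, lowest on Splotch null 3 and highest on Splotch null 2, and its genotype difference was -0.04 (SE 0.20). The core protein Uqcrc2 was steady too, with 0.10 between array groups and -0.01 (SE 0.17) between genotypes, while Uqcrc1 had a genotype difference of -0.08 (SE 0.20, 95% interval -0.55 to 0.40, unadjusted limma p = 0.716, exact two-sided permutation p = 0.9).

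The small subunit Uqcr11 showed the array pattern at its strongest. Its raw intensities were 836, 2778 and 2264 on wild type 1 to 3 and 2818, 2726 and 941 on Splotch null 1 to 3. The values of wild type 1 and Splotch null 3 were alike, and the 4 others lay 3.52-fold above them on the normalized scale, the largest such difference among the 75 genes. Between genotypes it differed by 0.14 (SE 0.65, 95% interval -1.39 to 1.66, unadjusted limma p = 0.839, exact two-sided permutation p = 0.6). Uqcrb, which binds ubiquinone, and Uqcrh, the hinge protein, had -0.86 and -0.42 between array groups. The Uqcrh probe was saturated on some arrays, and a second, dimmer probe of the same gene gave -0.94. Uqcr10 had a dim probe, at 85.6, 80.1 and 87.7 on wild type 1 to 3 and 93.2, 87.1 and 98.5 on Splotch null 1 to 3, and a genotype difference of 0.11 (SE 0.14, 95% interval -0.22 to 0.44, unadjusted limma p = 0.46, exact two-sided permutation p = 0.4). Uqcrq was above background on 2 arrays, wild type 1 and Splotch null 3, and was not tested.

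**Figure D3:**
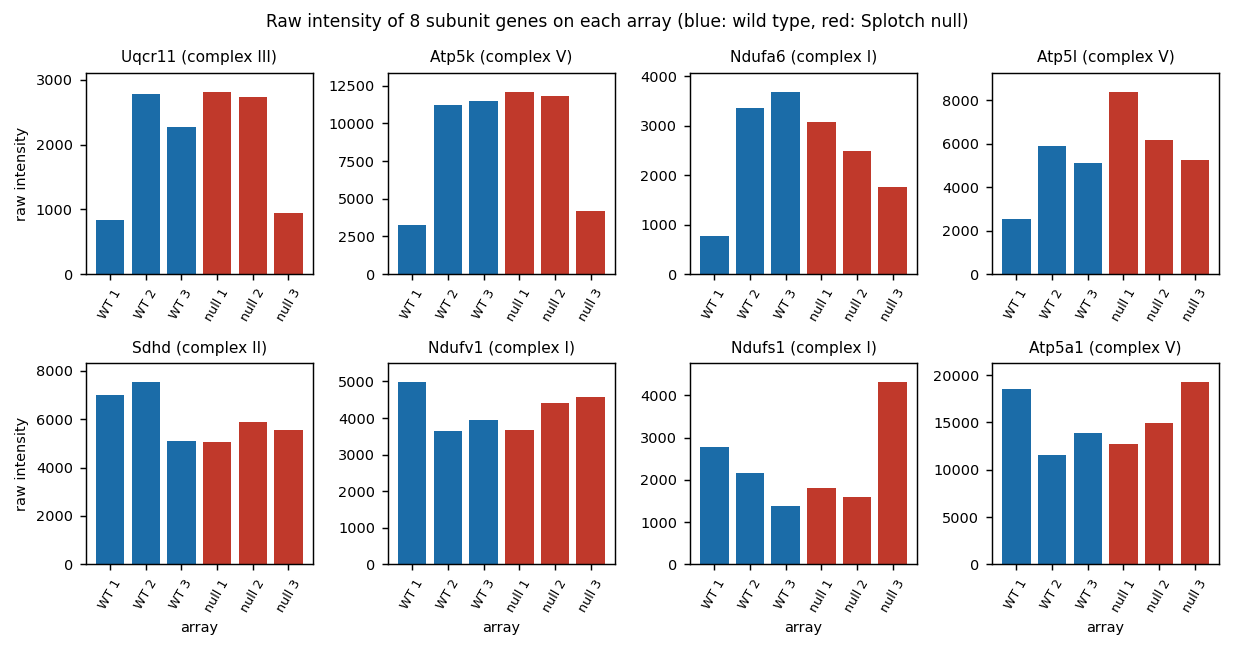
Raw intensity, as read from the arrays and on a linear axis from 0, of 8 subunit genes on each of the 6 arrays (blue, wild type; red, Splotch null). Uqcr11 and Atp5k are lowest on wild type 1 and Splotch null 3, Ndufs1 and Atp5a1 are highest there, Ndufv1 lies between 3636 and 4993, and Atp5l is lowest on wild type 1.

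Complex IV, cytochrome c oxidase, followed complex I. All 14 tested genes were lower on the 2 arrays of highest median, 11 of them at least 1.5-fold, with a median log2 difference of -1.02. The genotype difference had a median of 0.06, with 10 of 14 genes higher in the null. Cox7a2 read 4024, 10760.3 and 11152 on wild type 1 to 3 and 15923, 11918 and 6122 on Splotch null 1 to 3. Splotch null 1 was highest and wild type 1 lowest, and its genotype difference was 0.40 (SE 0.50, 95% interval -0.78 to 1.57, unadjusted limma p = 0.453, exact two-sided permutation p = 0.5). Cox7b, an X-linked gene, read 8353, 22362 and 24051 on wild type 1 to 3 and 29083, 24482 and 13946 on Splotch null 1 to 3, and its genotype difference was 0.37 (SE 0.42, 95% interval -0.63 to 1.36, unadjusted limma p = 0.413, exact two-sided permutation p = 0.5).

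Several complex IV subunits have isoforms used in particular tissues. Cox4i1, the general form of the subunit that regulates the enzyme, and Cox4i2, its lung form that responds to oxygen, both showed the array pattern, at -1.05 and -1.49. Their genotype differences were 0.07 (SE 0.39) and 0.05 (SE 0.55). The general forms Cox6a1, Cox6b1 and Cox8a had -0.98, -1.32 and -1.52 between array groups. Of the forms known from heart and skeletal muscle, Cox6a2 and Cox7a1 were dim but above background on all 6 arrays, with raw intensities of 68.5 to 98.3 and 60.1 to 95.9. Cox7a1 read 60.1, 67.8 and 60.5 on wild type 1 to 3 and 65.8, 95.9 and 63.4 on Splotch null 1 to 3, highest on Splotch null 2, and its genotype difference was 0.17 (SE 0.18, 95% interval -0.27 to 0.60, unadjusted limma p = 0.398, exact two-sided permutation p = 0.5). Cox8b, also a muscle form, and Cox7b2 were above background on no array. The other 4 tested genes had -1.30 for Cox5a, -0.97 for Cox5b, -0.96 for Cox7c and -0.78 for Cox6c. Cox7a2l, which joins complexes III and IV into supercomplexes, was among the steadier genes, at -0.40 between array groups and -0.10 (SE 0.19) between genotypes.

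Complex V, the ATP synthase, was also read by role, in a grouping made after the values were seen. The ranges of the difference between array groups overlapped, from -1.36 to 0.62 in the catalytic head and central stalk, -1.05 to -0.06 in the peripheral stalk and -1.16 to -0.63 in the ring of c subunits. The catalytic head is built from alpha and beta subunits (Atp5a1, Atp5b) around a central stalk (Atp5c1, Atp5d, Atp5e). Atp5a1 read 18561, 11606 and 13911 on wild type 1 to 3 and 12735, 14981 and 19312 on Splotch null 1 to 3, and was brightest on wild type 1 and Splotch null 3. Atp5b was higher on those arrays too. The log2 differences between array groups were 0.62 for Atp5a1, 0.37 for Atp5b, -0.22 for the gamma subunit Atp5c1, -0.78 for the delta subunit Atp5d and -1.36 for the epsilon subunit Atp5e. The genotype difference of Atp5c1, the smallest p of these 5, was -0.13 (SE 0.17, 95% interval -0.52 to 0.27, unadjusted limma p = 0.468, exact two-sided permutation p = 0.7).

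The 4 small subunits of the membrane part, which shape the dimer of the enzyme, had genotype differences of 0.10 to 0.59. By the mean of the 2 arrays all 4 were at least 1.5-fold lower than on the other 4, but for Atp5l and Atp5md this came mostly from wild type 1. Normalized log2 levels of Atp5l were 11.20 on wild type 1, 12.25 on Splotch null 3 and 12.39 or more on the others. Those of Atp5md were 11.67, 12.60 and 12.65 or more. Atp5l, subunit g, read 2534, 5886 and 5129 on wild type 1 to 3 and 8414, 6158 and 5264 on Splotch null 1 to 3. Wild type 1 stood lowest, Splotch null 1 highest, and the other 4 arrays of both genotypes lay between 5129 and 6158. Its log2 levels were 12.05 ± 0.74 in wild type and 12.65 ± 0.42 in Splotch null (SD, n = 3 each). Null minus wild type gave 0.59 (SE 0.38, 95% interval -0.30 to 1.49, unadjusted limma p = 0.16, exact two-sided permutation p = 0.4), with an adjusted limma p of 0.9998. It was 1.05 between Splotch null 3 and wild type 1 and 0.37 among the other 4 arrays, and without wild type 1 it was 0.18. Atp5md, a small subunit of the dimer interface, read 3445, 7439 and 6218 on wild type 1 to 3 and 8502, 6367 and 6501 on Splotch null 1 to 3, again with wild type 1 lowest and without it a genotype difference of 0.02. The difference between genotypes was 0.39 (SE 0.32, 95% interval -0.36 to 1.14, unadjusted limma p = 0.261, exact two-sided permutation p = 0.6).

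Atp5k, subunit e, read 3258, 11243 and 11463 on wild type 1 to 3 and 12111, 11826 and 4169.5 on Splotch null 1 to 3. Wild type 1 and Splotch null 3 were far below the other 4, which were 3.41-fold higher on the normalized scale and close to each other. Its genotype difference was 0.15 (SE 0.63, 95% interval -1.33 to 1.63, unadjusted limma p = 0.821, exact two-sided permutation p = 0.5). The 3 genes that encode the same mature c subunit of the rotating ring, Atp5g1, Atp5g2 and Atp5g3, had -1.16, -1.13 and -0.63 between array groups. Their genotype differences were 0.06, 0.04 and -0.10 (SE 0.43, 0.41 and 0.25). In the peripheral stalk, Atp5pb (subunit b) was steady at -0.06, while Atp5j, Atp5o and Atp5h had -1.05, -0.95 and -0.80. The remaining small subunit, Atp5mpl, had -1.07.

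Of the 85 probes, 76 were above background on all 6 arrays, 4 on some and 5 on none. The 4 were the probe of Uqcrq, a second, dimmer probe of Ndufa12 and of Uqcr10, and the Ndufs3 probe with the unusable spot. The 5 were Cox7b2, Cox8b and a second probe each of Uqcrc2, Atp5c1 and Atp5g1, the last of which was masked. Probes of 5 genes, Uqcrb, Uqcrh, Cox6c, Cox7c and Atp5g3, were saturated on some arrays, which were always among the 4 where the subunits were bright, so their differences between array groups are understated. Of the 7 genes with several probes, 3 had more than 1 tested. The 2 probes of Ndufa12 differed in the sign of the genotype difference, 0.17 and -0.11. Probes that the platform annotation gave several symbols, among them Ndufa4, Ndufb8 and Atp5j2, were left unnamed. Many of these small genes have processed pseudogenes, and whether a probe also reads such a copy was not tested.

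Other genes of mitochondria and energy metabolism were set beside the subunits, from lists chosen with these results known. None of their tested members passed the adjusted limma threshold. The proteins that assemble the complexes (38 genes, among them the complex I subunit and acyl carrier protein Ndufab1) had a median difference between array groups of -0.29, and 11 were at least 1.5-fold lower on the 2 arrays. Ndufaf3, a complex I assembly factor, and Surf1, which assembles complex IV, had -1.15 and -0.95. Of the 38, 25 were lower, beside 7324 of the 14331 genes tested. Only 1 was at least 1.5-fold higher, Lrpprc (0.64), which stabilises mitochondrial mRNA. Proteins of the mitochondrial ribosome showed the pattern widely, with a median of -0.69 and 41 of 73 at least 1.5-fold lower. For the cytosolic ribosome the median was -0.30, with 20 of 59.

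Enzymes that feed the chain had medians on the other side of 0. The citric acid cycle and pyruvate dehydrogenase list had a median of 0.18, with 0 of 20 at least 1.5-fold lower, and the glycolytic genes had 0.23, with 0 of 18. The list of 20 also held the cytosolic forms Aco1, Idh1 and Mdh1, and pyruvate carboxylase (Pcx). Idh1 (0.64) was its 1 gene at least 1.5-fold higher on the 2 arrays. Citrate synthase (Cs) was higher on the 2 arrays by 0.52. Pdha1, a subunit of pyruvate dehydrogenase, had an unadjusted limma p of 0.0484 between genotypes (difference 0.32, SE 0.14) and was the 1 gene of 20 in its list under 0.05, where 1.43% of all genes tested were. The regulators of mitochondrial biogenesis had a median of 0.10, with 1 of 21 at least 1.5-fold lower. Among them were Nrf1 (0.28), Gabpa (0.39) and Yy1 (0.49), whose motifs were counted above, and Tfam (0.10), which packages and transcribes mitochondrial DNA. Of the 21 regulators, 8 were lower on the 2 arrays, among them Esrra (-0.39) and Ssbp1 (-0.66), the 1 past 1.5-fold. The electron carriers, nucleotide carriers and proton channels (9 genes) had a median of 0.08. In 2 of the 9 the 2 arrays were at least 1.5-fold lower: the ATP synthase inhibitor Atpif1 (-1.32) and cytochrome c (Cycs, -0.62). Between genotypes, the median differences of these lists lay between -0.05 and 0.05, beside 0.02 for all genes tested.

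**Figure D4:**
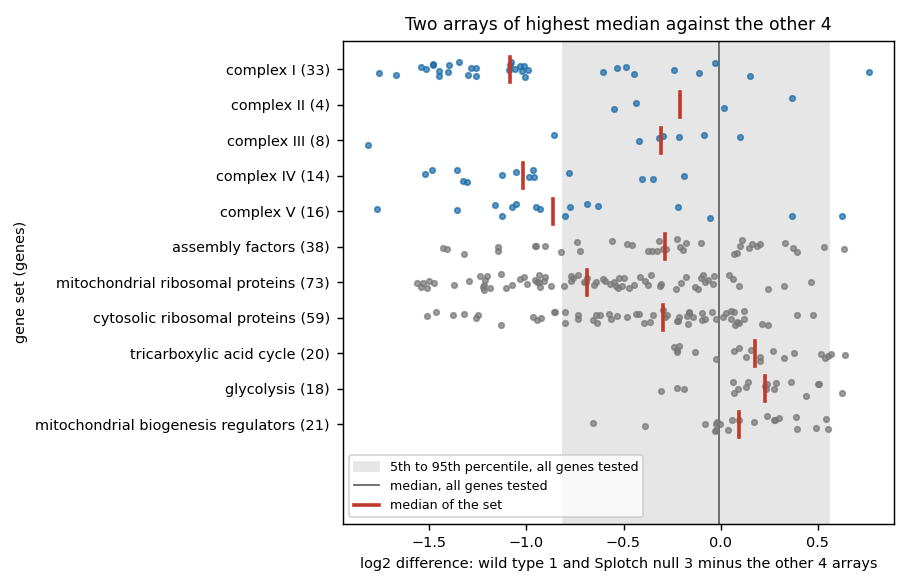
Log2 difference between the mean of wild type 1 and Splotch null 3 and the mean of the other 4 arrays, for each tested gene (points) of complexes I to V (blue) and of other lists (grey), with the median of each set (red). The grey band holds the 5th to 95th percentile of all genes tested (-0.81 to 0.56). The medians of complexes I, IV and V lie below the band, and those of the citric acid cycle, glycolysis and regulators lie just above 0.

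Properties of the arrays and genes that moved with the pattern were also measured. The share of transcript probes above background was 70.6% on wild type 1 and 71.7% on Splotch null 3, and 66.1% to 68.2% on the others. The subunit genes are short, with a median span of 7177 bases from start to end of the gene, against 20875 for all genes tested. Across the 75 genes Spearman's correlation of span with the difference between array groups was 0.30, and across 14311 genes tested it was 0.32. The same correlation with mean level was 0.08 across the 75 and 0.12 across all. Genes share arrays and are not replicates, so these are descriptions. The part of RNA quality, amplification or gene length in the pattern was not tested.

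Markers of other tissues in the dissected piece were set beside the subunits. Of 28 visceral endoderm and yolk sac genes, 15 were above background on all 6 arrays and Alb on none. Their summed raw intensity was 7393 to 11033 in wild type and 6860, 70881 and 5058 on Splotch null 1, 2 and 3, so they were highest on Splotch null 2. After centring each gene, the median level of the 19 of them tested was -0.58 on wild type 1 and -0.77 on Splotch null 3. It was -0.18 on wild type 2, -0.09 on wild type 3, -0.33 on Splotch null 1 and 2.12 on Splotch null 2. Between array groups the median log2 difference of these 19 was -1.12. At least 1.5-fold lower on the 2 arrays were 12 of the 19, against 8.65% of all genes tested. In 9 of the 19 both arrays lay below all other 4, against 25.6% of all genes tested. Of 15 erythroid genes, 10 were measured, with a sum of 33576 to 56022 in wild type and 45222 to 60870 in the null. The median of these 10 was higher on the 2 arrays where the subunits were dim, by 0.81. Of the 10, 6 were at least 1.5-fold higher there, against 4.21% of all genes tested. Wild type 1 carried this, since the median level after centring each gene was 0.94 on wild type 1 and 0.05 on Splotch null 3, below 0.23 on Splotch null 2. Of 15 cardiac genes 14 were measured, with a sum of 2111 to 3038 in wild type and 2200.0 to 3706 in the null, lowest on wild type 1 and Splotch null 3. Myh6, Myh7, Nppb, Tnnc1 and Tnnt2 were above background on no array. The 12 skeletal muscle genes summed to 739 to 934 in wild type and 803 to 1379 in the null, with Ckm, Myl1 and Tnnc2 above background on no array. The 7 tested cardiac genes had a median of -0.375 between array groups, with 3 at least 1.5-fold lower on the 2 arrays. The 7 tested skeletal muscle genes had 0.13, with 1 at least 1.5-fold lower. What these tissues contributed to the subunit levels was not tested. Without Splotch null 2, the median genotype difference of the subunits was -0.11, and 2 genes did not overlap between genotypes, against 11.7% of all genes.

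The labels were checked with a few other genes. The posterior markers Cdx2 and Hoxd11 were above background on all 6 arrays and the anterior markers Otx2 and Emx1 on none, although 1 label field names the anterior neural tube. Both Pax3 probes were above background on all 6 arrays, with genotype differences of -0.09 (SE 0.20) and 0.17 (SE 0.21). The allele and the place of the probes relative to it were not given, so this does not check the genotype labels.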

How the data were processed

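Total RNA was amplified to biotin-labelled cRNA, per the labels' protocols, and CodeLink Expression Analysis 5.0.0.31312 read the arrays, per the file headers. The deposited reports hold a raw intensity per spot, negative for some spots, so a background had been subtracted by a method the headers do not name, and an intensity scaled by the authors to a global median. Spots with flag G (good) or S (saturated) counted as above background and flag L (near background) as usable. The other 277 to 422 transcript spots per array were left out. Raw intensity was floored at 0.0119, increased by 50, log2-transformed and quantile-normalized, so differences of dim genes are understated. Probes above background on at least 3 of 6 arrays were fitted with limma 3.58.1 in R 4.3.3 (lmFit, eBayes), with Benjamini-Hochberg adjustment over all probes tested. A gene is its probe of highest mean.

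Symbols came from GEO's platform annotation, updated by gene identifier (21487 probes) to GRCm38.p6, with 128 kept as given and 535 named by accession. Probes with several symbols (681) or none (12136) were unnamed. Promoters are RefSeq's. Replicate numbers follow accession order and pair nothing.

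Genes named were the 3 with the smallest p in each complex, the 6 with the largest range among those above background on all arrays, paralogue sets and Sdh genes, probes above background on no array or saturated, and genes whose probes disagree in sign. Others were named after their values were seen. Members and lists were chosen with earlier results of these data known. The procedure was tested on simulated data. Alternatives were other scalings, offsets of 10 and 200, other filters, trended and robust eBayes, array median as a covariate, arrays left out, and the mean of a gene's probes. Comparing the 2 arrays of highest median with the rest under other scalings was added after seeing the data. The values of 1 gene are not reported here. Figures used matplotlib 3.10.9.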

Additional observations from a re-analysis of the deposited data

How the results depend on the processing

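No gene of the whole array passed the adjusted limma threshold under any setting run. Among the 75 subunit genes, the number with an unadjusted limma p under 0.05 went from 0 to 1 with log2 array median as a covariate (Ndufc1). The share of all genes tested was then 4.73%. Without the 2 arrays of highest median the number was 2, against 3.37% of all genes tested. With single arrays left out it lay between 0 and 1. The 1 gene was Sdhd without wild type 3, against 2.01% of all genes tested, and Sdhb without Splotch null 3, against 3.92%. The number without overlap between genotypes was 25 without the 2 arrays and 0 to 20 with single arrays left out, the highest without Splotch null 3, when 25.6% of all genes did not overlap. With fewer arrays, groups overlap less often by construction. The median genotype difference ranged from -0.23 to 0.39 with single arrays left out. By complex, these ranges were -0.25 to 0.42 for complex I, -0.16 to 0.00 for complex II, -0.08 to 0.17 for complex III, -0.18 to 0.44 for complex IV and -0.27 to 0.34 for complex V. The median difference between the 2 arrays of highest median and the others was -1.33 with median scaling, -1.33 with the authors' normalized intensity and -1.33 with the authors' value table, and between -1.07 and -0.92 with cyclic loess, other offsets or no scaling, where that of all genes moved to 0.27 with no scaling. Of 19 named genes, 3 changed sign without those 2 arrays, Uqcrc1 (0.061), Atp5c1 (0.047) and Ndufa6 (-0.33). With single arrays left out, signs changed within the ranges -0.11 to 0.84 for Ndufa5, -0.23 to 0.10 for Uqcrc1, -0.003 to 0.32 for Cox7a1, -0.10 to 0.66 for Cox7b, -0.11 to 0.81 for Cox7a2, -0.25 to 0.03 for Atp5c1, -0.64 to 0.60 for Ndufa6, -0.49 to 0.71 for Atp5k, -0.47 to 0.75 for Uqcr11 and -0.12 to 0.88 for Ndufs5-ps. Signs held, with a changing size, for Atp5l (0.18 to 0.84), Atp5md (0.02 to 0.62), Ndufc1 (0.07 to 0.80), Sdhb (0.03 to 0.40), Sdha (-0.27 to -0.02), Sdhd (-0.41 to -0.16), Ndufa9 (-0.21 to -0.04), Uqcr10 (0.04 to 0.21) and Uqcrfs1 (0.002 to 0.12). The cause was not tested. Counts with the mean of a gene's probes were not run. No paired analysis was possible because replicate numbers follow accession order. Dim probes near background, such as Uqcr10 and Cox7a1, limit what their differences show.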
